A study of Mus musculus with 18 samples.

Results

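Transcripts of 10 cytokine ligands of the TNF family, Tnf, Lta, Ltb, Tnfsf9, Tnfsf10, Tnfsf11, Tnfsf13b, Tnfsf15, Fasl and Eda, were followed across 18 RNASeq samples of cultured mouse kidney cells. They were found by matching the Entrez Gene identifiers of the deposited tables to current mouse symbols, and all 10 were listed among the 36528 genes of each table. The cells were primary tubulo-interstitial epithelial cells (RPTEC) from kidneys of C57BL/6 mice, with 3 samples in each of 6 groups. The groups were vehicle, TWEAK at 100 ng/mL, and TWEAK at 100 ng/mL with 3 µM NIK SMI1, a small molecule inhibitor of the kinase NIK, each after 6 h and after 24 h. There was no group with NIK SMI1 alone, so that every effect of the inhibitor was measured in the presence of TWEAK. Neither the labels nor the study's methods say that the samples of a group came from separate animals or cell preparations, and p-values then measure only the spread between these cultured samples.

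Most ligands of the TNF family are made as membrane proteins, assemble into trimers, and signal to neighbouring cells either from the membrane or after a protease has cut them free. They bind receptors of the TNF receptor family, many of which activate the transcription factor NF-κB. TWEAK is itself a member of the family, the product of Tnfsf12. It binds the receptor Fn14 (Tnfrsf12a) and activates both the canonical NF-κB pathway and the non-canonical one, in which NIK leads to the processing of p100 to p52. Tnf, Lta and Ltb are textbook target genes of NF-κB in immune cells, where most ligands of the family are known to be made. The comparisons asked which ligand genes a TWEAK-treated tubular cell transcribes, and what NIK SMI1 does to them.

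The depth was 18040966 to 51956444 counted reads per sample, with a median of 35374254. At this depth 3 reads, the floor used for a level, correspond to 0.0577 to 0.166 CPM (counts per 1000000 counted reads), depending on the sample. All 7 markers of tubular epithelium were expressed in all samples, with Epcam at 641 to 1350 CPM, and of the 8 proximal tubule markers 4 had enough reads to be tested. Among these Slc5a2 had 5.83 to 8.52 CPM and Cubn 1.93 to 4.64 CPM over the samples, whereas Slc34a1, Slc22a6 and Hnf4a had at most 2 reads in any sample. Of 14 leukocyte markers, 11 had at most 10 reads in every sample, and Cd3e, Cd3g and Tyrobp had none. Their summed level was almost entirely Cd68 and Csf1r. It was 18.5 to 19.6 CPM in vehicle, 19.0 to 21.5 CPM in TWEAK and 18.8 to 19.1 CPM in TWEAK with NIK SMI1 at 6 h, and 21.4 to 22.7, 24.4 to 26.2 and 19.99 to 21.2 CPM in the same order at 24 h. Of 5 endothelial markers, Emcn had no read in any sample, and the summed level was at most 0.813 CPM. Of 5 fibroblast and mural cell markers, Col1a1 had 8.77 to 13.3 CPM and Acta2 3.47 to 7.51 CPM, and 2 had at most 10 reads in every sample. Their summed level was 17.5 to 19.2 CPM in vehicle, 14.3 to 15.1 CPM in TWEAK and 15.4 to 17.97 CPM in TWEAK with NIK SMI1 at 6 h, and 17.2 to 19.2, 12.9 to 18.8 and 14.4 to 18.3 CPM at 24 h. Reads of pancreatic islet hormones were present in every library of vehicle and at 6 h, at 11.6 to 23.9 CPM summed over 6 markers. They were nearly or fully absent from the 3 libraries of TWEAK with NIK SMI1 at 24 h, at 0 to 0.0650 CPM, and the TWEAK libraries at 24 h held 11.2, 0.214 and 3.47 CPM. The calls at 24 h were therefore also fitted without TWEAK samples 1 and 3, the 2 with the most islet reads. Calls lost in that fit are named beside the results, except for the cell type markers, which were not checked. That fit leaves a single TWEAK sample at 24 h, so a call can be lost although the effect is not smaller. The fit brings TWEAK closer to TWEAK with NIK SMI1 in islet reads. It takes TWEAK further from vehicle at 24 h, which held 11.6 to 15.7 CPM. For calls against vehicle it therefore cannot show whether they depend on islet reads.

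Expression of the ligands was low with the exception of Tnfsf9. On the RPKM scale, which divides by gene length and allows levels of different genes to be compared, Tnfsf9 had 6.37 ± 0.423 RPKM (SD, n = 3) in vehicle at 6 h. The next in that group were Ltb with 0.154 ± 0.0953 RPKM, Eda with 0.131 ± 0.0262 RPKM and Tnf with 0.0828 ± 0.0468 RPKM, which did not differ from one another beyond their spread. Lta had 0.0292 ± 0.0120 RPKM, Tnfsf15 had 0.02496 ± 0.0109 RPKM and Tnfsf13b had 0.0183 ± 0.0158 RPKM, again within their spread. Tnfsf11 and Tnfsf10 had 0.00743 and 0.00424 RPKM, and Fasl was listed at 0. With TWEAK for 24 h the order was Tnfsf9 with 4.94 ± 0.333 RPKM, Ltb with 0.715 ± 0.0722 RPKM, Tnfsf15 with 0.194 ± 0.0240 RPKM, Eda with 0.15 ± 0.0411 RPKM and Tnf with 0.147 ± 0.0290 RPKM. In vehicle at the same time Ltb had 0.180 ± 0.0669 RPKM and Eda 0.167 ± 0.0560 RPKM, within their spread, followed by Tnf with 0.0516 ± 0.0206 RPKM, and Tnfsf15 had 0.0106 ± 0.00415 RPKM. With TWEAK, Ltb thus stood above Eda, and Tnfsf15 lay within the spread of Eda and Tnf.

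The study's own filter asked for 4 or more samples above 10 reads, and 5 of the 10 ligands met it and were tested among 15521 genes: Tnfsf15, Ltb, Tnf, Tnfsf9 and Eda. Tnf passed with exactly 4 samples above 10 reads, of which 3 were TWEAK samples. Ltb passed with 11 samples and Tnfsf15 with 12 samples, with 1 vehicle sample in each case. A gene that passes mainly through the group in which it is high had to differ between groups. Counts and medians over the tested ligands therefore describe these genes and are not support for a response of the family. Differences were tested with edgeR's quasi-likelihood test, and a gene is called changed at a Benjamini-Hochberg adjusted p below 0.05 over all genes tested. In bulk samples, fewer cells making a transcript and less RNA per cell cannot be told apart.

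TWEAK against vehicle raised Tnfsf15, Ltb and Tnf at 6 h, and Tnfsf15 and Ltb at 24 h. No ligand fell. The calls were thus 3 of 5 tested ligands up and 0 down at 6 h, where 11.7% of all genes tested were called up and 12% down, and 2 of 5 up and 0 down at 24 h, where 18.3% were called up and 20.7% down. Without the 2 TWEAK samples with islet reads, Tnfsf15 was at 3.76 and Ltb at 2.00 at 24 h. The vehicle samples hold islet reads too, so this fit does not even out islet reads between TWEAK and vehicle. At an unadjusted p below 0.05, 1 ligand was lower at 6 h (Eda) and none was lower at 24 h. DESeq2 called 2 ligands at each time point. The median log2 fold change of the 5 tested ligands, 1.48 at 6 h and 1.32 at 24 h, was the value of Tnf at both times. It describes these genes only, because of the filter.

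**Figure D1:**
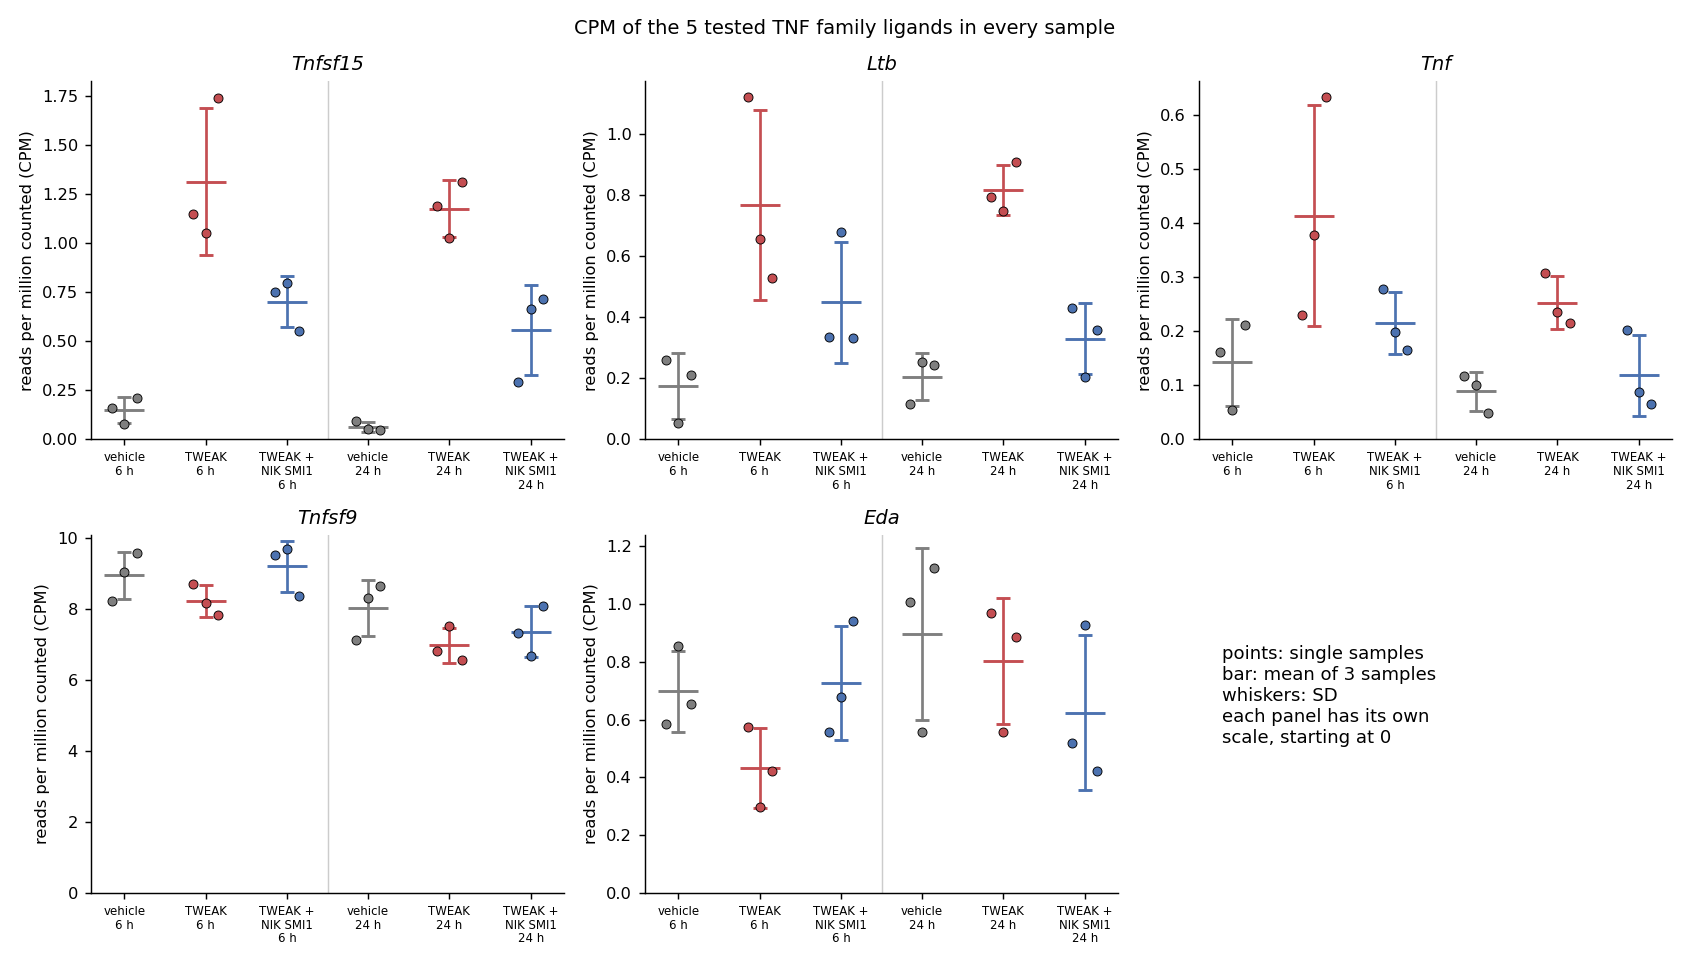
CPM (counts per 1000000 counted reads) of the 5 tested ligands in each of the 18 samples. Points are samples, horizontal bars the mean of 3 samples and whiskers the SD. Each panel has its own linear scale from 0. The 6 TWEAK samples of Tnfsf15 sit between 1.03 and 1.74 CPM, above all 6 vehicle samples, and the samples of TWEAK with NIK SMI1 lie between these groups, whereas Tnfsf9 stays between 6.57 and 9.70 CPM in all 18 samples.

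Tnfsf15 (Entrez 326623), the ligand TL1A, costimulates T cells through death receptor 3 and is known as a product of endothelial and myeloid cells. It had 5, 3 and 11 reads in the vehicle samples at 6 h and 40, 53 and 66 reads in the TWEAK samples at 6 h. At 24 h it had 4, 1 and 1 reads in vehicle and 27, 48 and 55 reads with TWEAK. The groups did not overlap at either time. In CPM the level went from 0.151 ± 0.0664 to 1.31 ± 0.374 at 6 h and from 0.0644 ± 0.0253 to 1.18 ± 0.144 at 24 h (mean ± SD, n = 3 each). This was a log2 fold change of 3.04 (SE 0.37, adjusted p = 2.2e-07) at 6 h and 3.96 (SE 0.49, adjusted p = 1.85e-07) at 24 h. These are 8.24-fold and 15.6-fold, with 95% intervals of the log2 value from 2.29 to 3.80 and from 2.96 to 4.96. The difference between the time points, 0.92 (SE 0.74, adjusted p = 0.549), was not called, and its interval ran from -0.61 to 2.44. Tnfsf15 overlaps the annotated long non-coding RNA gene Gm42294. The sources used here do not state that counting used the strand, and reads of overlapping genes then cannot be told apart.

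Ltb (Entrez 16994), lymphotoxin β, anchors lymphotoxin α in the membrane and activates the receptor Ltbr, which is known for the development of lymphoid tissue. It had 8, 2 and 11 reads in vehicle and 39, 33 and 20 reads with TWEAK at 6 h. At 24 h it had 5 reads in each vehicle sample and 18, 35 and 38 reads with TWEAK. Again no TWEAK sample overlapped the vehicle samples of its time point, in reads or in CPM. Mean CPM was 0.175 ± 0.108 and 0.768 ± 0.312 in vehicle and TWEAK at 6 h, and 0.205 ± 0.0763 and 0.817 ± 0.0822 at 24 h. TWEAK raised Ltb by a log2 value of 2.11 (SE 0.42, adjusted p = 0.000341) at 6 h and 2.13 (SE 0.46, adjusted p = 0.000523) at 24 h, or 4.31-fold and 4.38-fold. Between the time points the effect differed by 0.02 (SE 0.68, adjusted p = 0.993), with an interval from -1.37 to 1.42.

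Tnf (Entrez 21926), the inflammatory cytokine TNF itself, lies next to Ltb and Lta in a cluster on chromosome 17. Its reads were few in all groups. There were 5, 2 and 11 reads in vehicle and 8, 19 and 24 reads with TWEAK at 6 h, and 5, 2 and 1 reads in vehicle and 7, 11 and 9 reads with TWEAK at 24 h. In CPM the groups did not overlap at either time, but the gap was small at 6 h, between 0.212 in the highest vehicle sample and 0.230 in the lowest TWEAK sample. The group means were 0.142 ± 0.0809 and 0.414 ± 0.204 CPM at 6 h and 0.0891 ± 0.0357 and 0.253 ± 0.0491 CPM at 24 h. The log2 fold change of 1.48 (SE 0.46, adjusted p = 0.0185) passed the test at 6 h. The value at 24 h, 1.32 (SE 0.62, adjusted p = 0.0989), did not. The difference between these effects, -0.16 (SE 0.90, adjusted p = 0.957), was not called. The call at 6 h was lost with DESeq2 (1.52, adjusted p = 0.0542), without vehicle sample 2 at 6 h (1.11, adjusted p = 0.103) and without TWEAK sample 3 at 6 h (1.07, adjusted p = 0.149). Over the 24 alternatives the adjusted p ran from 0.0075 to 0.149.

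The promoter windows of the 3 genes called in these comparisons are shown because they moved together with TWEAK, an activator of NF-κB. They were taken from RefSeq in build GRCm38.p6, as the 250 bases before the annotated start, written from 5′ to 3′ on the strand of the gene. The windows are chr4:63745060-63745309 on the minus strand for Tnfsf15, chr17:35194257-35194506 on the plus strand for Ltb and chr17:35202008-35202257 on the minus strand for Tnf. Capitals mark the only match to the NF-κB consensus.
Tnfsf15: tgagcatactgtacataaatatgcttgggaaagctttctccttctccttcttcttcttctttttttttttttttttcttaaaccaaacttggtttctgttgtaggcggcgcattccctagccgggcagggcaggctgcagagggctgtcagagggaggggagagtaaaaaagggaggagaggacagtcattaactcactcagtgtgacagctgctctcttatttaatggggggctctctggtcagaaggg
Ltb: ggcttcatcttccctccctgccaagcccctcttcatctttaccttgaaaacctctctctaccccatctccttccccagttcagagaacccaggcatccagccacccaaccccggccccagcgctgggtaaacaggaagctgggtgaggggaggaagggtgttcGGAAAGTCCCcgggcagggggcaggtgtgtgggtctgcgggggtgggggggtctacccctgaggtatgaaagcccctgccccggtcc
Tnf: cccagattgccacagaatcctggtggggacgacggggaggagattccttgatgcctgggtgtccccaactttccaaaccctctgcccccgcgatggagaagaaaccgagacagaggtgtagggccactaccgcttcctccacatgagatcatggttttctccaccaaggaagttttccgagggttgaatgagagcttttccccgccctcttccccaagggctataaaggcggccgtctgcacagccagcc

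The match in Ltb, GGAAAGTCCC, begins 87 bases before the start and reads as the consensus on the opposite strand. Promoter windows were at hand for 9 of the 10 ligands, 10 windows in all because Tnfsf13b had 2. Tnfsf9 is the ligand without an entry. The NF-κB consensus, searched on both strands, was found in 1 of the 10 windows, that of Ltb, and in 7.25% of all 32851 windows of the table. The AP-1 site TGANTCA, also searched on both strands and palindromic outside its middle base, was found in 1 of the 10 windows, the second of Tnfsf13b at 127 bases before the start, and in 6.75% of all windows. The 2 searched motifs do not overlap in these windows. A match is a description of the letters, and the lack of a match in Tnfsf15 and Tnf says only that these letters are not in this window.

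Tnfsf9 and Eda did not follow the other tested ligands. Tnfsf9 (Entrez 21950), the ligand 4-1BBL that costimulates T cells through 4-1BB (Tnfrsf9), was the only ligand above 2 CPM, and its counts of 151 to 497 reads per sample gave it the narrowest intervals. It had 8.94 ± 0.673 CPM in vehicle and 8.23 ± 0.446 CPM with TWEAK at 6 h, and 8.03 ± 0.794 and 6.97 ± 0.486 CPM at 24 h. The samples overlapped at both times. The log2 fold change was -0.12 (SE 0.09, adjusted p = 0.41) at 6 h, with an interval from -0.30 to 0.07, and -0.18 (SE 0.10, adjusted p = 0.171) at 24 h, with an interval from -0.38 to 0.03. A change as large as that of Tnfsf15, Ltb or Tnf lies outside these intervals. Tnfsf9 overlaps the annotated long non-coding RNA gene Gm11110, from which its reads may not be separable.

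Eda (Entrez 13607), ectodysplasin A, acts in the development of hair, teeth and glands. It had 18, 32 and 34 reads in vehicle and 20, 15 and 16 reads with TWEAK at 6 h, and 43, 11 and 23 reads in vehicle and 22, 26 and 37 reads with TWEAK at 24 h. In CPM the highest TWEAK sample at 6 h, 0.575, lay just under the lowest vehicle sample, 0.583, whereas the groups overlapped widely at 24 h. Log2 fold changes of Eda were -0.72 (SE 0.35, adjusted p = 0.149) at 6 h and -0.23 (SE 0.33, adjusted p = 0.618) at 24 h. Neither was called.

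NIK SMI1 added to TWEAK, compared with TWEAK alone, lowered Ltb and Tnfsf15 at 24 h. No ligand passed the test at 6 h. The 3 TWEAK samples of a time point are shared by this comparison and the one of TWEAK with vehicle, so that a high value in them raises the effect of TWEAK and lowers the value for NIK SMI1. At 6 h, edgeR called 0 of 5 tested ligands in either direction, while 5.34% of all genes tested were called up and 5.7% down. At an unadjusted p below 0.05 the count was 1 (Tnfsf15), and DESeq2 called 0. At 24 h the count was 0 up and 2 down of 5, while 10.2% of all genes tested were called up and 8.29% down, and DESeq2 also called 2. The median log2 fold change of the 5 ligands was -0.76 at 6 h, the value of Ltb, and -0.93 at 24 h, the value of Tnf. Neither value was called.

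With NIK SMI1, Tnfsf15 had 27, 20 and 10 reads at 6 h and 13, 23 and 22 reads at 24 h, where TWEAK alone had given 40, 53 and 66, and 27, 48 and 55. In CPM all 3 samples with the inhibitor lay under all 3 with TWEAK alone at both times. The means were 0.701 ± 0.130 CPM at 6 h and 0.558 ± 0.231 CPM at 24 h. The log2 fold change was -0.87 (SE 0.30, adjusted p = 0.0669) at 6 h and -1.12 (SE 0.31, adjusted p = 0.0101) at 24 h, which leaves 0.548 and 0.460 of the level with TWEAK alone. The effect differed by -0.25 between the time points (SE 0.44, adjusted p = 0.82). The value at 6 h passed the threshold with no filter on low counts (-0.88, adjusted p = 0.0462) and without sample 1 of TWEAK with NIK SMI1 at 24 h (-0.87, adjusted p = 0.0398), a sample outside the comparison. The call at 24 h was lost without TWEAK sample 3 (-1.02, adjusted p = 0.0548) and without sample 1 of TWEAK with NIK SMI1 (-0.76, adjusted p = 0.0954). Over the 24 alternatives the adjusted p ran from 0.0398 to 0.285 at 6 h and from 0.00299 to 0.204 at 24 h.

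Ltb had 12, 17 and 6 reads with NIK SMI1 at 6 h and 19, 7 and 11 reads at 24 h. At 6 h the sample of 17 reads, at 0.679 CPM, lay above 2 of the 3 samples of TWEAK alone, and at 24 h all samples with the inhibitor lay under all with TWEAK alone. The means were 0.448 ± 0.200 CPM and 0.330 ± 0.115 CPM. Against TWEAK alone Ltb was at -0.76 on the log2 scale (SE 0.39, adjusted p = 0.242) at 6 h and -1.28 (SE 0.38, adjusted p = 0.0175) at 24 h, or 0.589 and 0.411 of the level with TWEAK alone. The difference between the time points, -0.52 (SE 0.55, adjusted p = 0.674), was not called. The call at 24 h was lost without TWEAK sample 3 (-1.19, adjusted p = 0.0711) and without sample 2 of TWEAK with NIK SMI1 (-1.04, adjusted p = 0.0971), within a range of 0.00664 to 0.197 over the 24 alternatives.

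Both calls at 24 h were also lost without the 2 TWEAK libraries that hold islet reads, where Ltb was at -1.15 (adjusted p = 0.197) and Tnfsf15 at -0.92 (adjusted p = 0.204). This leaves a single TWEAK sample at 24 h, which is assumed to vary like the other groups. In the fit of all 18 samples, of the leukocyte markers, Csf1r was called up with TWEAK at 24 h and down with NIK SMI1 at 24 h. Of the endothelial markers, Cdh5, with 1 to 18 reads per sample, was called up with TWEAK at 24 h. Of the fibroblast and mural markers, Col1a1 was called down with TWEAK at 6 h and Acta2 at 24 h, and none was called with NIK SMI1 against TWEAK. Of the 7 tubular epithelium markers, 2 were called up and 4 down with TWEAK at 6 h, and 1 up and 6 down at 24 h. With NIK SMI1 against TWEAK, 4 of them were called up and 1 down at 6 h, and 5 up and 1 down at 24 h. Of the 4 tested proximal tubule markers, Cubn was called down with TWEAK at both times, and none was called with NIK SMI1 against TWEAK. With TWEAK, the shares of all genes tested were 11.7% up and 12% down at 6 h, and 18.3% up and 20.7% down at 24 h. With NIK SMI1 against TWEAK they were 5.34% up and 5.7% down at 6 h, and 10.2% up and 8.29% down at 24 h. The part of leukocytes, endothelial cells and fibroblasts in the levels of the ligands was not tested.

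Tnf had 10, 5 and 3 reads with NIK SMI1 at 6 h and 9, 3 and 2 reads at 24 h, that is 0.215 ± 0.0575 and 0.118 ± 0.0742 CPM. The samples overlapped those of TWEAK alone at 6 h, with 0.278 CPM against 0.230 CPM, and lay under them at 24 h, with 0.203 CPM at most against at least 0.215 CPM. Tnf differed by -0.87 on the log2 scale (SE 0.47, adjusted p = 0.273) at 6 h and -0.93 (SE 0.54, adjusted p = 0.272) at 24 h. The intervals, from -1.84 to 0.09 and from -2.05 to 0.18, hold both no change and a fall larger than those called for Ltb and Tnfsf15.

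Tnfsf9 had 9.20 ± 0.722 CPM at 6 h and 7.37 ± 0.712 CPM at 24 h with NIK SMI1. Its log2 fold change from TWEAK alone was 0.17 (SE 0.09, adjusted p = 0.301) and 0.07 (SE 0.10, adjusted p = 0.717). For Eda, with 20, 17 and 17 reads at 6 h and 23, 32 and 13 reads at 24 h, it was 0.72 (SE 0.37, adjusted p = 0.255) and -0.33 (SE 0.33, adjusted p = 0.589). Neither value of Eda passed the test, nor did their difference of -1.04 (SE 0.50, adjusted p = 0.261). Without the TWEAK samples with islet reads, Eda was at 0.16 (adjusted p = 0.900) at 24 h.

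**Figure D2:**
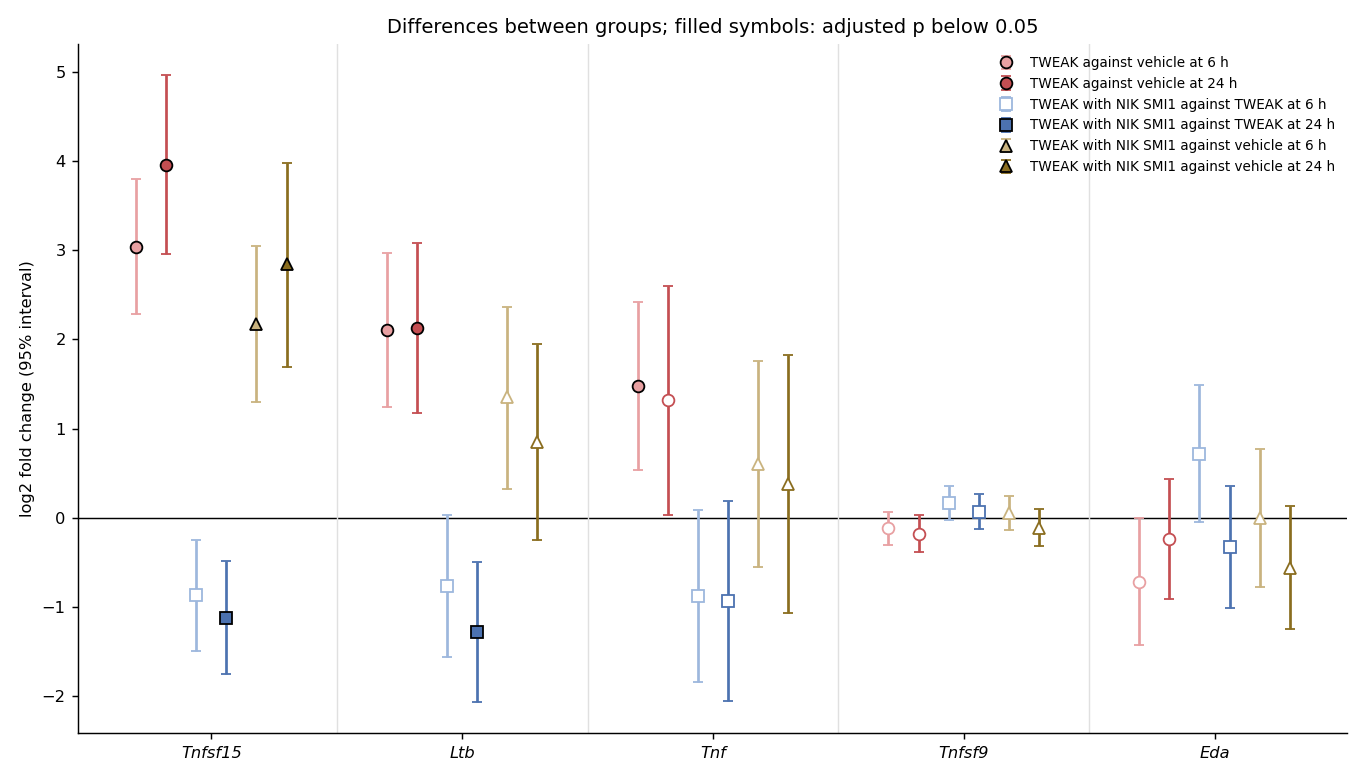
Log2 fold changes of the 5 tested ligands in 6 comparisons, with 95% intervals. Symbols are filled where the adjusted p is below 0.05. Tnfsf15 is filled in 5 of the 6 comparisons and Ltb in 3, Tnf only for TWEAK against vehicle at 6 h, and Tnfsf9 and Eda in none.

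The comparison of TWEAK with NIK SMI1 against vehicle shows how far the levels came back. At 24 h these groups also differed in islet reads, at 0 to 0.0650 CPM with NIK SMI1 and 11.6 to 15.7 CPM in vehicle. The part of this difference in the levels of the ligands was not tested. Tnfsf15 remained higher than in vehicle at both times. The log2 difference was 2.17 (SE 0.42, adjusted p = 0.000654) at 6 h and 2.84 (SE 0.56, adjusted p = 0.000387) at 24 h, or 4.51-fold and 7.15-fold, and no sample overlapped. Ltb was at 1.35 (SE 0.50, adjusted p = 0.0706) and 0.85 (SE 0.53, adjusted p = 0.322), with intervals from 0.33 to 2.36 and from -0.25 to 1.95. Tnf was at 0.60 (SE 0.56, adjusted p = 0.547) and 0.38 (SE 0.71, adjusted p = 0.792), with intervals from -0.55 to 1.76 and from -1.07 to 1.83. Of the 5 tested ligands, 1 was called up and 0 down at each time. The shares of all genes tested were 7.23% up and 6.7% down at 6 h and 8.07% up and 9.83% down at 24 h. At an unadjusted p below 0.05, Ltb was also higher at 6 h and no ligand was lower at either time. DESeq2 called Tnfsf15 at 24 h and gave no adjusted p for 4 of the 5 ligands at 6 h.

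In vehicle, Tnfsf9 was lower at 24 h than at 6 h by a log2 value of -0.25 (SE 0.10, adjusted p = 0.0495), with samples that overlapped. It was the 1 ligand called down of 5, beside 14.4% of all genes tested. The call was lost in 17 of 23 alternatives, and without a single sample the adjusted p ran from 0.0331 to 0.356. Tnf at -0.67 (adjusted p = 0.504), Ltb at 0.01 (adjusted p = 0.991), Tnfsf15 at -1.15 (adjusted p = 0.233) and Eda at 0.32 (adjusted p = 0.511) were not called. The effects of TWEAK and of NIK SMI1 were not called different between 6 h and 24 h for any tested ligand by edgeR, while of all genes tested 3.24% were called up and 5.67% down for the difference in the effect of TWEAK, and 3.11% up and 1.62% down for that of NIK SMI1. At an unadjusted p below 0.05 the count was 0 for TWEAK and 1 for NIK SMI1 (Eda), and DESeq2 called 0 in both, with no adjusted p for 1 and 4 of the 5 ligands.

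The other 5 ligands had too few reads to test. Lta (Entrez 16992), lymphotoxin α, had 42 reads over all 18 samples and at most 5 in one. In vehicle there were 2, 1 and 3 reads at 6 h and 2, 2 and 2 at 24 h, with TWEAK 5, 5 and 2 and then 0, 2 and 0, and with NIK SMI1 4, 2 and 1 and then 5, 3 and 1. Summed at 24 h, Lta had 2 reads with TWEAK and 6 in vehicle, where its neighbours on chromosome 17 had 91 and 15 (Ltb) and 27 and 8 (Tnf). Its reads summed over 3 samples gave a ratio of TWEAK to vehicle of 1.96 at 6 h (95% interval 0.679 to 6.35, counting error only) and, from 2 reads against 6, of 0.249 at 24 h (0.0245 to 1.39). Both intervals hold a ratio of 1.

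Tnfsf13b (Entrez 24099), the B cell survival factor BAFF, had 48 reads in all and at most 8 in one sample. There were 0, 3 and 4 reads in vehicle, 4, 4 and 3 with TWEAK and 1, 2 and 1 with NIK SMI1 at 6 h. At 24 h there were 1, 0 and 4, then 1, 6 and 8, and then 1, 2 and 3 reads. The summed ratio of TWEAK to vehicle was 1.54 (0.544 to 4.67) at 6 h and 2.24 (0.773 to 7.87) at 24 h. That of NIK SMI1 with TWEAK to TWEAK was 0.566 (0.131 to 1.91) and 0.406 (0.129 to 1.11). The summed reads were highest with TWEAK at both times, and every interval holds a ratio of 1. Fitted without the filter on low counts, Lta and Tnfsf13b were called in none of these comparisons, with adjusted p of 0.663 and 0.789 for TWEAK at 6 h and 0.364 and 0.591 at 24 h.

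Tnfsf11 (Entrez 21943), the osteoclast factor RANKL, had 8 reads in all, with at most 2 in a sample and none in the 6 samples of TWEAK and TWEAK with NIK SMI1 at 24 h. Tnfsf10 (Entrez 22035), the death ligand TRAIL, had 5 reads in 4 samples. Fasl (Entrez 14103), the death ligand of cytotoxic lymphocytes, had 1 read in all, in TWEAK sample 3 at 24 h. Summed over the 18 samples and 626048357 reads, the upper 95% limit was 0.0252 CPM for Tnfsf11, 0.0186 CPM for Tnfsf10 and 0.00890 CPM for Fasl. No fold is given for these 3 genes, whose groups are all at or under 3 reads.

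**Figure D3:**
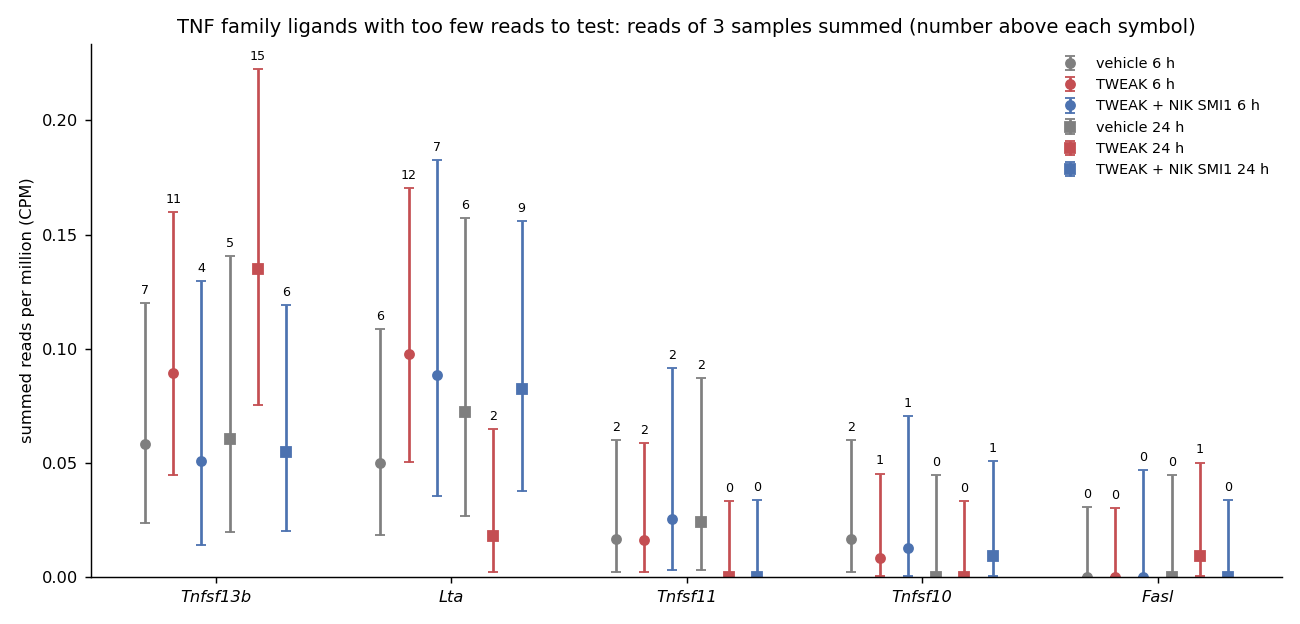
Summed CPM of the 5 ligands that were not tested, with exact 95% Poisson intervals. Each symbol sums 3 samples (circles 6 h, squares 24 h) and the number above it is the count of reads. The highest is Tnfsf13b with TWEAK at 24 h at 0.135 CPM from 15 reads, and the intervals of the groups overlap within each gene.

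The other 8 ligands of the superfamily listed for comparison were Tnfsf4, Tnfsf8, Tnfsf12, Tnfsf13, Tnfsf14, Tnfsf18, Cd40lg and Cd70. Tnfsf12, the gene of TWEAK, and Tnfsf13, the gene of APRIL, were tested, and the remaining 6 had at most 15 reads over all samples, with none for Tnfsf8 and Cd70. Tnfsf12 had 11.6 ± 0.463 CPM in vehicle and 11.3 ± 1.39 CPM with TWEAK at 6 h, and 12.6 ± 0.710 and 10.4 ± 0.788 CPM at 24 h, where it fell by 0.26 on the log2 scale (SE 0.09, adjusted p = 0.0213). Tnfsf13 fell by 0.49 (SE 0.13, adjusted p = 0.00385) with TWEAK at 24 h, from 7.04 ± 0.149 to 5.15 ± 0.806 CPM. Without the TWEAK samples with islet reads the call of Tnfsf12 was lost (-0.19, adjusted p = 0.257). At 6 h neither passed the test by edgeR or DESeq2, nor at an unadjusted p below 0.05. Neither passed for NIK SMI1 against TWEAK in the same tests.

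**Figure D4:**
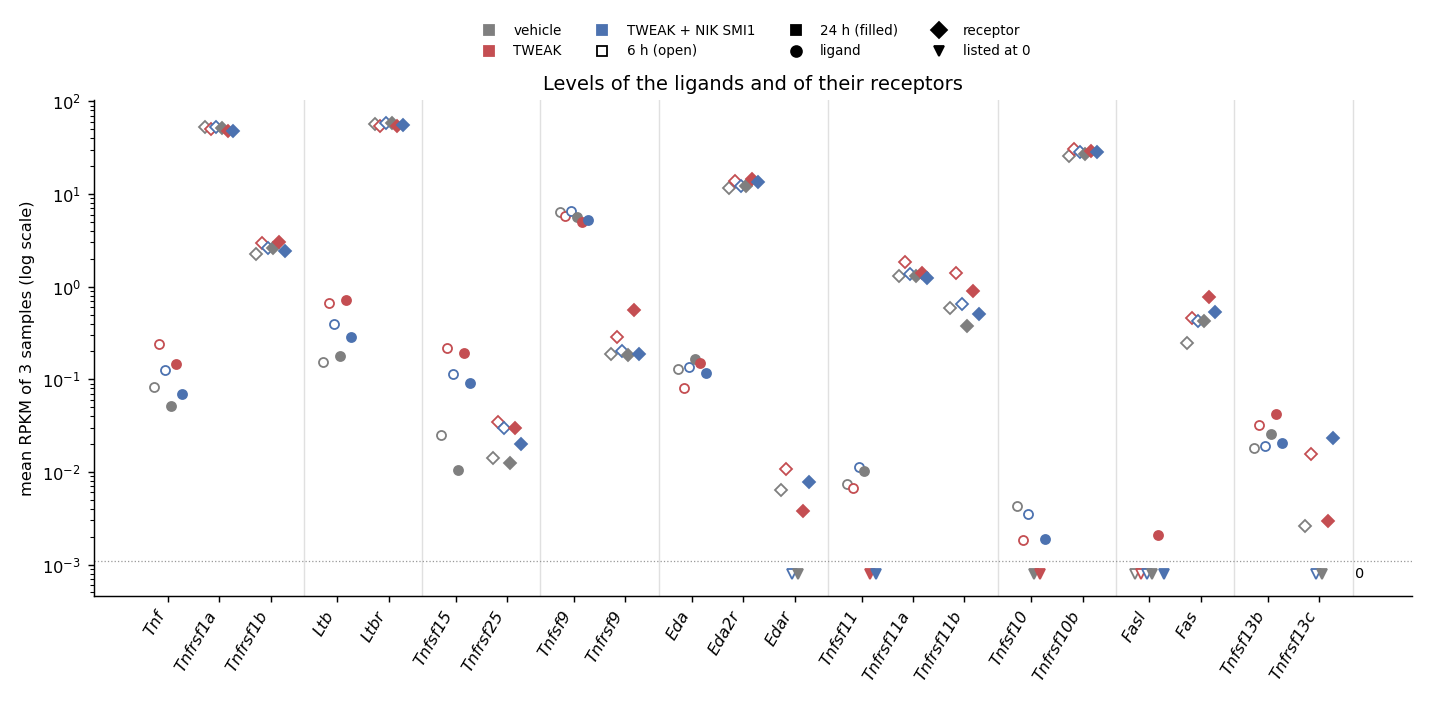
Mean RPKM of the ligands (circles) and of their receptors (diamonds) in the 6 groups on a log scale, with values of 0 as triangles under the dotted line. Lta shares Ltbr, Tnfrsf1a and Tnfrsf1b and is not drawn. Ltbr (53.7 to 58.6 RPKM) and Tnfrsf1a (47.7 to 52.9 RPKM) stand far above Ltb and Tnf in every group, whereas Tnfsf9 stands above Tnfrsf9.

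Receptors of the 10 ligands were expressed over a much wider range than the ligands. Of 17 receptors, 11 were tested, and 6 were called up and 2 down with TWEAK at 6 h, beside 11.7% and 12% of all genes tested, and 6 up and 3 down at 24 h, beside 18.3% and 20.7%. Their median log2 fold changes were 0.27 and 0.12. Ltbr, the receptor of lymphotoxin β, had 117 to 128 CPM as group means and was called with TWEAK only at 24 h, at -0.11 (SE 0.04, adjusted p = 0.0384), a call lost without the TWEAK samples with islet reads (-0.08, adjusted p = 0.36). Tnfrsf1a, the main TNF receptor, had 107 to 119 CPM and was not called with TWEAK at either time. Tnfrsf1b, the other TNF receptor, rose with TWEAK by 0.41 (SE 0.07, adjusted p = 3.75e-05) at 6 h and by 0.23 (SE 0.07, adjusted p = 0.0131) at 24 h, and fell by 0.34 (SE 0.07, adjusted p = 0.000853) with NIK SMI1 at 24 h.

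The receptors of the other ligands showed no common pattern. Tnfrsf9, the receptor of Tnfsf9, had at 24 h 0.423 ± 0.142 CPM in vehicle, 1.29 ± 0.193 CPM after TWEAK and 0.436 ± 0.137 CPM when NIK SMI1 was added. It rose by 1.65 (SE 0.34, adjusted p = 0.000272) and fell by 1.59 (SE 0.31, adjusted p = 0.000443) in these comparisons, while Tnfsf9 itself was not called. Tnfrsf25, the receptor of Tnfsf15, had 31 reads in all and at most 9 in a sample, so that the most strongly induced ligand had almost no transcript of its own receptor in these cells. Tnfrsf11b, the decoy receptor osteoprotegerin that binds RANKL, rose by 1.27 (SE 0.17, adjusted p = 1.75e-06) at 6 h and fell by 1.14 (SE 0.18, adjusted p = 6.92e-05) with NIK SMI1. Fas, the receptor of Fas ligand, rose by 0.93 (SE 0.26, adjusted p = 0.00812) at 6 h and by 0.87 (SE 0.24, adjusted p = 0.00474) at 24 h. Tnfrsf22 and Tnfrsf23, decoy receptors of TRAIL and close paralogs between which reads can be hard to assign, fell at both times, by 0.29 and 0.35 at 6 h and by 0.32 and 0.42 at 24 h (largest adjusted p = 1.24e-06). Tnfrsf10b, the signalling receptor of TRAIL, rose by 0.24 (adjusted p = 7.01e-06) at 6 h and by 0.12 (adjusted p = 0.0124) at 24 h, the latter call being lost without the TWEAK samples with islet reads (0.08, adjusted p = 0.266). Tnfrsf13b, Tnfrsf13c and Tnfrsf17, the receptors of BAFF, had 3, 12 and 0 reads in all. Tnfrsf12a, the receptor of TWEAK, had 412 to 519 CPM as group means and was not called with TWEAK at either time. With NIK SMI1 against TWEAK it was called up at 6 h (0.13, SE 0.04, adjusted p = 0.0269) and not called at 24 h (-0.01, adjusted p = 0.894). In vehicle it was lower at 24 h than at 6 h, at -0.305 (SE 0.04, adjusted p = 6.82e-07).

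With NIK SMI1 against TWEAK, 3 of the 11 tested receptors were called down and 0 up at 6 h, beside 5.7% and 5.34% of all genes tested, and 3 down and 2 up at 24 h, beside 8.29% and 10.2%. The 3 at 6 h were Tnfrsf11b, Tnfrsf11a, the receptor RANK, at -0.39 (SE 0.10, adjusted p = 0.00695), and Eda2r, a receptor of ectodysplasin, at -0.21 (SE 0.04, adjusted p = 0.00235). With TWEAK, Tnfrsf11a had risen by 0.51 (adjusted p = 8.85e-05) at 6 h, and Eda2r by 0.27 (adjusted p = 1.88e-05) at 6 h and 0.24 (adjusted p = 8.44e-05) at 24 h. Those at 24 h were Tnfrsf9, Tnfrsf11b and Tnfrsf1b. The 2 receptors up at 24 h were Tnfrsf22 at 0.13 and Tnfrsf23 at 0.11, with adjusted p = 0.0197 and 0.0425. Both calls were lost without the TWEAK samples with islet reads, where the effects were not smaller (0.16 and 0.14).

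Genes that act on the ligands or their transcripts were given as lists. The lists were chosen with earlier results of these data known, so counts over them describe these genes only. Of 9 enzymes that mature or shed TNF ligands, 8 were tested, and 3 were called up and 2 down with TWEAK at 6 h and 2 up and 2 down at 24 h, beside the same shares of all genes tested as above (11.7% up and 12% down at 6 h, 18.3% up and 20.7% down at 24 h). Rhbdf2, which carries the TNF sheddase Adam17 to the cell surface, rose by 0.48 (SE 0.04, adjusted p = 4.62e-10) at 6 h and by 0.47 (SE 0.04, adjusted p = 6.46e-10) at 24 h. With NIK SMI1 against TWEAK, Rhbdf2 was at 0.10 (SE 0.04, adjusted p = 0.118) at 6 h, which was not called. At 24 h it fell by 0.16 (SE 0.04, adjusted p = 0.00594), a call lost without the TWEAK samples with islet reads (-0.19). The difference between the time points, -0.26 (SE 0.06, adjusted p = 0.00811), was called. Adam17 itself rose by 0.29 (SE 0.04, adjusted p = 5.04e-07) and by 0.24 (SE 0.04, adjusted p = 7.02e-06). With NIK SMI1, Adam17 fell by 0.20 and by 0.15 (adjusted p = 0.000348 and 0.00491). The latter call was lost without the TWEAK samples with islet reads, where the effect was not smaller (-0.16). Rhbdf1 rose by 0.28 (adjusted p = 0.000341) at 6 h, and the protease Adam10 fell by 0.13 (adjusted p = 0.0148) at 6 h and by 0.25 (adjusted p = 2.01e-05) at 24 h. Pcsk6, a proprotein convertase, fell by 0.59 (SE 0.05, adjusted p = 6.72e-10) and by 1.26 (SE 0.06, adjusted p = 2.18e-16), and was 0.43 and 0.62 higher with NIK SMI1 (adjusted p = 1.98e-06 and 2.59e-09). Of 6 factors that destabilise Tnf mRNA, 2 were called up and 1 down with TWEAK at 6 h and 2 up and 2 down at 24 h, beside these shares. Zfp36l1 rose by 0.81 and 0.97, Zc3h12a by 0.34 and 0.56, and Zfp36l2 fell by 0.68 and 0.78 (largest adjusted p = 1.78e-05). Rc3h2 fell by 0.18 at 24 h (adjusted p = 0.0408), a call lost without the TWEAK samples with islet reads (-0.17). With NIK SMI1 against TWEAK, 2 of the tested enzymes were called up and 2 down at 6 h, and 1 up and 2 down at 24 h. Of the factors that destabilise Tnf mRNA, 1 was called up and 1 down at 6 h, and 1 up and 2 down at 24 h. The shares of all genes tested were 5.34% up and 5.7% down at 6 h, and 10.2% up and 8.29% down at 24 h.

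All 10 reference genes of the NF-κB pathway were called up with TWEAK at both times, beside 11.7% and 18.3% of all genes tested. The medians of their log2 fold changes were 1.38 and 1.51. This list too was chosen with earlier results of these data known, so its counts and medians describe these genes only. With NIK SMI1 against TWEAK, 8 were called down and 1 up at 6 h and 9 down and 1 up at 24 h, beside 5.7% down and 5.34% up and 8.29% down and 10.2% up of all genes tested, with medians of -0.40 and -0.58. The gene called up was Map3k14, which encodes NIK, at 0.43 and 0.33. Traf1, which encodes an adaptor of TNF receptors, had the largest change of the list, 4.36 (SE 0.11) at 6 h and 5.68 (SE 0.11) at 24 h with TWEAK, and fell by 1.91 (SE 0.09) and 2.43 (SE 0.07) with NIK SMI1. Nfkbia, which encodes the inhibitor IκBα, rose by 2.56 (SE 0.04) at 6 h and 2.77 (SE 0.05) at 24 h and fell by 1.14 (SE 0.04) and 1.49 (SE 0.04) with NIK SMI1. Birc3 rose by 2.48 and 2.83, Nfkbie by 2.47 and 2.93, Nfkb2 by 1.90 and 1.87 and Relb by 0.82 and 1.16 with TWEAK (largest adjusted p = 4.87e-14). Without the TWEAK samples with islet reads, the call of Rel at 24 h was lost in both comparisons (adjusted p = 0.0923 with TWEAK and 0.236 with NIK SMI1).

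Likeness of pattern was measured for the 2 ligands above 1 CPM in the mean of a group, as Pearson's r of log2(CPM + 0.5) over the 18 samples. The samples share their groups, so that any gene with the same group means is alike. For Tnfsf15, genes among the 3 most alike included Mtmr4 (r = 0.970) and Tank (r = 0.961). For Tnfsf9 the 3 most alike were Micalcl (r = 0.888), Gipc1 (r = 0.874) and Mgst3 (r = 0.859).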

How the data were processed

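RNASeq was done on 18 samples of murine RPTEC (TruSeq RNA libraries, single-end reads). HTSeqGenie with the aligner GSNAP and NCBI build 37 was used by the authors, who deposited unnormalized counts of the uniquely aligned reads in each gene's exons. The authors also deposited RPKM values, scaled by exonic length, and the length itself as another column in bases. These RPKM were not scaled by the sum of the counts. Tnfsf9 in vehicle at 6 h had 6.37 RPKM against 6.62 CPM per kilobase. Whether counting used strand is not given in the sources used here.

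Symbols came from RefSeq (GRCm38.p6) by Entrez identifier, with 31049 of 36528 genes matched. Counts were divided by the sample total for CPM. A model of 6 groups was fitted to all samples in edgeR 4.0.16 (R 4.3.3; TMM, glmQLFit, glmQLFTest) over the 15521 genes that had 4 or more samples above 10 reads. Standard errors and 95% intervals of log2 fold changes were taken from its F statistic. RPKM entered no test. Reads of 3 samples were summed with exact 95% Poisson or binomial intervals, which cover counting error only.

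The members and the lists were chosen with earlier results of these data known. All 10 members are named. Of other lists, the members past the test with the largest changes, up to 6 per list, are named, as are receptors of the ligands. The 3 tested genes most alike in pattern are named for ligands above 1 CPM in a group mean, of which 1 gene is not reported here. Samples were numbered 1 to 3 by name only, since the labels give no numbers. The alternatives were DESeq2 1.42.0 (the study's tool), its size factors in edgeR, no filter, filterByExpr, each time point alone, each sample left out and, added after seeing the data, the TWEAK libraries at 24 h with islet reads left out.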

Additional observations from a re-analysis of the deposited data

How the results depend on the processing

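Each log2 fold change of the 5 tested ligands was refitted under up to 24 alternatives, 1053 values in all. Of these, 991 kept direction and side of the threshold, 26 lost a call, 3 gained one and 33 changed sign, none of the last with a call before or after. Most of the values were not called in the main fit and had no call to lose. The lost calls were those of Tnf with TWEAK at 6 h, Ltb and Tnfsf15 with NIK SMI1 against TWEAK at 24 h, and Tnfsf9 with time in vehicle. With no filter on low counts, 1 ligand (Tnfsf15) in place of 0 was called for NIK SMI1 against TWEAK at 6 h, and 2 in place of 1 for TWEAK with NIK SMI1 against vehicle at 6 h, where Ltb was added (1.35, adjusted p = 0.0495, range over its 23 alternatives 0.0495 to 0.385). Without the 2 TWEAK libraries at 24 h with islet reads, 0 in place of 2 were called for NIK SMI1 against TWEAK at 24 h. In vehicle, 0 in place of 1 were called down at 24 h against 6 h with DESeq2, no filter, filterByExpr or without these libraries. Leaving out 1 sample, the calls ran from 0 to 1 for NIK SMI1 against TWEAK at 6 h, from 0 to 2 at 24 h, and from 0 to 1 for time in vehicle. DESeq2 gave no adjusted p for 12 of 45 values, which were not counted as lost, and its count for TWEAK with NIK SMI1 against vehicle at 6 h is left out because Tnfsf15 was among them. The time points fitted alone give no test across time.

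The values that changed sign were never called. Leaving out 1 sample, Tnf ran from -0.31 to 0.73 for TWEAK with NIK SMI1 against vehicle at 24 h, from -0.66 to 0.25 for the change of the TWEAK effect with time and from -0.75 to 0.22 for that of NIK SMI1. Ltb ran from -0.39 to 0.44 for time in vehicle and from -0.41 to 0.42 for the change of the TWEAK effect, which was -0.024 with DESeq2 and -0.11 without the islet libraries. Tnfsf15 ran from -0.51 to 0.11 for the change of the NIK SMI1 effect. Eda ran from -0.43 to 0.0098 for TWEAK at 24 h and from -0.18 to 0.19 for TWEAK with NIK SMI1 against vehicle at 6 h, where it was -0.0031 with the size factors of DESeq2 and -0.0010 with no filter. Without the islet libraries, Eda was at 0.16 and Tnfsf9 at -0.028 for NIK SMI1 against TWEAK at 24 h, and the change of the TWEAK effect was -0.0055 for Eda and 0.034 for Tnfsf9. The cause was not tested. CPM on TMM library sizes moved no group mean of the 10 ligands by more than its SD, and the order by RPKM was that by reads per kilobase. No paired analysis was possible because the labels give no replicate numbers. For ligands under 10 reads in a sample, the depth limits what could be detected.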
